A study of Homo sapiens with 15 samples.

Results

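The G2/M and mitosis genes are those whose products carry a cell into mitosis, build the spindle and part the daughter cells. The members were 40 genes listed by name, 39 of which were measured on these arrays as 1 gene each, out of 18417 genes with a symbol. CENPA, the centromeric histone H3, was the one passed over, because its probeset also names a second gene. RNA was hybridised to Affymetrix whole-transcript arrays, 15 in all, in 5 groups of 3. HUVEC, human umbilical vein endothelial cells, were kept for 6 h with JINB8 exosomes, kept for 6 h with JK exosomes, or left untreated. The other groups were RNA of the JINB8 exosomes and RNA of the JK exosomes. JK stands for Jurkat, a human T cell leukaemia line (CD47+), and JINB8 is a CD47-deficient (CD47-) mutant of it, so that each exosome type came from 1 line. CD47 sits on the cell surface and binds thrombospondin-1. Exosomes, the small vesicles cells shed, were precipitated from conditioned medium with a reagent kit. Nothing in the labels says that replicates came from separate cultures, and the p-values then cover only the spread among these arrays, which may be technical.

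A cell enters mitosis when CDK1 bound to cyclin B is switched on, a step helped by CDC25C and PLK1. Kinesins and microtubule-binding proteins then form the spindle, the kinetochore checkpoint holds the cell until every chromosome is attached, and CDC20 directs the ubiquitin ligase that destroys securin and cyclin B. The transcripts of these genes peak in G2 and mitosis and are low in resting cells. Their promoters often hold a CCAAT box, bound by NF-Y, and a CHR element, through which the DREAM complex represses and the MuvB complex with MYBL2 and FOXM1 activates transcription. Endothelial cells that line vessels rarely divide, while those in culture and in growing vessels do.

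The arrays were not on 1 level. The median of all genes on the deposited log2 scale was 5.57 to 5.62 with JINB8 exosomes and 5.61 to 5.67 with JK exosomes, against 7.41 to 7.44 in untreated HUVEC. Comparisons with untreated HUVEC therefore used values quantile-normalised over the 9 HUVEC arrays, which give each array the same distribution. The array level and the treatment cannot be told apart. The endothelial markers PECAM1, CDH5 and VWF were bright on every HUVEC array. The summed linear signal of 14 measured endothelial markers was 24336 to 25288 with JINB8 exosomes, 23034 to 24557 with JK exosomes and 21199 to 23008 in untreated HUVEC. Such a sum follows its brightest genes. The mean log2 values of the 14 overlapped among those groups, at 10.08 to 10.25, 10.03 to 10.20 and 10.04 to 10.18. Of the 14, 3 were lower and 4 higher with JINB8 exosomes (23.3% and 26.0% of all genes). With JK exosomes 2 were lower and 3 higher (22.4% and 26.2% of all genes). The sum of 19 T cell markers was 901 to 923, 855 to 891 and 740 to 817 in the same order of groups. With JINB8 exosomes 5 of 19 were lower and 3 higher, and with JK exosomes 4 were lower and 4 higher, beside the same shares of all genes. Their mean log2 values were 4.83 to 4.88, 4.81 to 4.83 and 4.80 to 4.85, so each treatment overlapped untreated HUVEC. The sum of 12 mural cell and fibroblast markers was 4418 to 4561, 4174 to 4331 and 6197 to 6466, with 3 of 12 lower and 2 higher in both treatments. Their mean log2 values were 6.03 to 6.06, 6.00 to 6.02 and 6.02 to 6.16. The median log2 fold change of the 12 was 0.06 with JINB8 exosomes and -0.01 with JK exosomes, so the sum does not describe the list as a whole. The part of these marker levels in the results on the mitotic genes was not tested. CD47 gave log2 signals of 4.58, 4.67 and 4.94 in JINB8 exosome RNA, against 4.72, 4.69 and 4.72 in JK exosome RNA. The values of the lines overlapped, so this probeset does not check the labels.

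Most of the mitotic genes were lower in HUVEC kept with exosomes than in untreated HUVEC, whichever line the exosomes came from. With JINB8 exosomes 31 of 39 were lower and 0 higher at an adjusted p under 0.05 (limma, Benjamini-Hochberg over 18417 genes), against a background of 23.3% of all genes lower and 26.0% higher (49.3% in either direction). With JK exosomes 31 of 39 were lower and 0 higher, against 22.4% and 26.2% of all genes (48.6% in either direction). All 3 treated arrays were below all 3 untreated ones for 31 of the 39 with JINB8 exosomes (27.1% of all genes) and for 32 with JK exosomes (25.9%), and above them for 0 in both (30.5% and 30.2%). The median log2 fold change of the 39 was -0.87 with JINB8 exosomes, where all genes had a median of 0.02, and -0.91 with JK exosomes, where it was also 0.02. A fall of at least 2-fold passed for 13 of them with JINB8 exosomes, beside 3.52% of all genes, and for 15 with JK exosomes, beside 3.45%. Both comparisons share the 3 untreated arrays, so their results are not independent. On these bulk samples fewer cells in mitosis and less of each transcript per cell cannot be told apart.

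**Figure D1:**
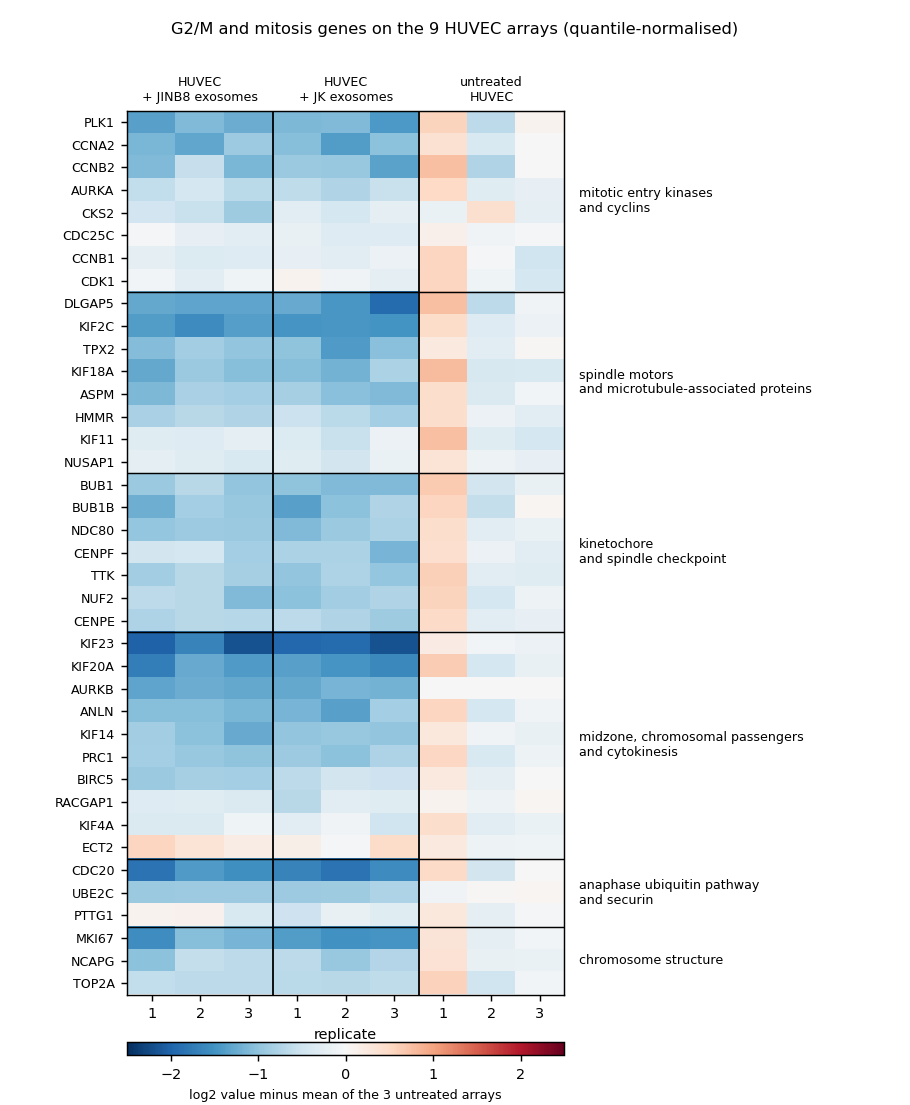
Log2 values of the 39 measured G2/M and mitosis genes on the 9 HUVEC arrays after quantile normalisation, each minus its mean over the 3 untreated arrays; rows are genes by role, columns are replicates by group, blue is lower and red higher. KIF23 is the darkest row in both treated groups, ECT2 is pale red to near white there, and untreated replicate 1 is above the other untreated arrays for 37 of 39 genes.

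One untreated array carried part of this size. Untreated replicate 1 was the highest untreated array for 37 of the 39 genes and lay above its group's mean for 37 (48.8% of all genes did), with a median deviation of 0.44. The median range over the 3 arrays of a group was 0.24 with JINB8 exosomes and 0.28 with JK exosomes, against 0.77 in untreated HUVEC, where CCNB2 spread most, by 1.49. Without that array 28 genes were lower and 1 higher with JINB8 exosomes, with a median of -0.67 and 6 lower at least 2-fold. Of all genes 4152 (22.5%) were then lower and 4442 higher. With JK exosomes 30 of the 39 were lower and 0 higher without that array, with a median of -0.64 and 8 lower at least 2-fold. All 30 were among the 31 of the full set. Of all genes 4034 (21.9%) were then lower and 4451 higher. Without untreated replicate 2 the genes lower at least 2-fold were 20 with JINB8 exosomes and 22 with JK exosomes.

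The promoters of the 3 genes that were lowest with JK exosomes and of the 3 that were highest are shown so that both ends of the list can be read side by side. The sequences are the 250 bases before the start in RefSeq (GRCh38.p14), on the gene's own strand and 5′ to 3′, with the CHR element TTTGAA and the CCAAT box in capitals, either of them also as its reverse complement TTCAAA or ATTGG. KIF23 lies at chr15:69414099-69414348 (plus strand), CDC20 at chr1:43358731-43358980 (plus) and DLGAP5 at chr14:55191586-55191835 (minus). CCNB1 lies at chr5:69166900-69167149 (plus), CDK1 at chr10:60778081-60778330 (plus, the first of 2 listed starts) and ECT2 at chr3:172750476-172750725 (plus, also the first of 2).
KIF23: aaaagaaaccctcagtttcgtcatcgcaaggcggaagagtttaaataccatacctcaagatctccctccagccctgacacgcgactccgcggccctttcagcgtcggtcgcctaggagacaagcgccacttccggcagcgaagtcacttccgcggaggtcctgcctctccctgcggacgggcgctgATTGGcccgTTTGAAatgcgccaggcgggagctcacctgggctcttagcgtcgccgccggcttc
CDC20: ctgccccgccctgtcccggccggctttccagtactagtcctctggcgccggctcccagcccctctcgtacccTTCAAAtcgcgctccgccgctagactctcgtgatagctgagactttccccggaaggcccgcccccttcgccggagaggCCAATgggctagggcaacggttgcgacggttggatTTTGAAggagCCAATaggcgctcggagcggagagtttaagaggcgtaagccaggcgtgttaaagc
DLGAP5: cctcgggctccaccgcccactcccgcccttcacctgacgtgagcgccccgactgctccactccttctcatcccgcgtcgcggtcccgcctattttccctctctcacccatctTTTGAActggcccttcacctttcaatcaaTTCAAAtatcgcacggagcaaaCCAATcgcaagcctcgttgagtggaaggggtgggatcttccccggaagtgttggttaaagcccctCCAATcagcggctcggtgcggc
CCNB1: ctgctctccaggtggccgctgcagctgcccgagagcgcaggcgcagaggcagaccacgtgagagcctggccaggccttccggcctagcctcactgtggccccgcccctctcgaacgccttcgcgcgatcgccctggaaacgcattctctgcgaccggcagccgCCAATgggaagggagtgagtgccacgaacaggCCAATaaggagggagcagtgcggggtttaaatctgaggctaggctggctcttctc
CDK1: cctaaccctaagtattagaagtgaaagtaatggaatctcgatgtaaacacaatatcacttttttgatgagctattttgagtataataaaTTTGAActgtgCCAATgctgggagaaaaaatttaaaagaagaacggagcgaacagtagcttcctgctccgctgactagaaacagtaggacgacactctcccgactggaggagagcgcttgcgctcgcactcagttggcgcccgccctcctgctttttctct
ECT2: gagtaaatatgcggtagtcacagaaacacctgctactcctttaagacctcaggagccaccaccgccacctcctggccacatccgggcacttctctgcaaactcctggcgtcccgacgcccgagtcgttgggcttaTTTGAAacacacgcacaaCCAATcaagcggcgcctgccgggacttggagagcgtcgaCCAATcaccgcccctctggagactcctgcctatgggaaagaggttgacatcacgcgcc

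KIF23 holds TTTGAA 55 bases and ATTGG 64 bases before its start, counted from the motif's first base. CDC20 and DLGAP5 each hold the CHR element on both strands and a pair of CCAAT boxes. CCNB1 holds CCAAT boxes 87 and 55 bases before its start and no TTTGAA in this window, while the windows of CDK1 and ECT2 hold both motifs. Of the 39 measured genes 33 had a promoter entry of 300 bases, from 250 before to 50 after the start; RACGAP1, UBE2C, TTK, AURKA, BIRC5 and TPX2 did not. TTTGAA on either strand was found for 25 of 33, against 18.2% of 27305 genes in the same table, and CCAAT on either strand for 26 of 33, against 39.7%. Both were found for 20 of 33, against 7.26% of genes. The variant TTCGAA, which reads alike on both strands, was found for 2 of 33, against 1.82%. Motifs were searched one by one, so that letters could be shared. Among genes lower with JK exosomes 19 of 25 held TTTGAA and 18 of 25 held CCAAT, and among those that did not pass 6 of 8 and 8 of 8 did. Genes that passed and genes that did not both held these letters in most windows.

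Among the kinases and cyclins of mitotic entry 5 of 8 were lower in each treatment, while the pair at the centre of the switch did not pass. PLK1, the polo-like kinase that promotes entry and spindle assembly, had log2 values of 6.43, 6.68 and 6.54 with JINB8 exosomes and 6.66, 6.68 and 6.35 with JK exosomes, against 8.34, 7.14 and 7.88 in untreated HUVEC. All 6 treated arrays were below all untreated ones. Its log2 fold change was -1.24 ± 0.23 (SE) with JINB8 exosomes and -1.22 ± 0.23 with JK exosomes (adjusted p = 0.00107 and 0.00122, limma, n = 3 arrays a group). CCNA2, cyclin A2 of S phase and G2, fell by 1.11 with JINB8 exosomes and by 1.16 with JK exosomes on that scale, CCNB2 by 0.94 and 1.07 and AURKA, the centrosomal Aurora kinase, by 0.58 and 0.65. With JINB8 exosomes the call on CCNB2 was lost without untreated replicate 1 or 3 or JINB8 replicate 1 or 3, and that on AURKA without JINB8 replicate 3.

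CDK1, the kinase that starts mitosis, had 4.46, 4.25 and 4.42 with JINB8 exosomes and 4.61, 4.43 and 4.31 with JK exosomes, against 5.06, 4.42 and 4.09 in untreated HUVEC. The untreated arrays spanned the treated ones, and the log2 fold changes of -0.15 ± 0.19 and -0.07 ± 0.19 (SE) did not pass (adjusted p = 0.553 and 0.780, limma). CCNB1, cyclin B1, its partner, had 5.44, 5.32 and 5.36 with JINB8 exosomes and 5.47, 5.41 and 5.53 with JK exosomes, against 6.21, 5.63 and 5.16 in untreated HUVEC. Its log2 fold changes of -0.30 ± 0.20 and -0.20 ± 0.20 (SE) did not pass either (adjusted p = 0.230 and 0.422, limma). The intervals ran from -0.58 to 0.28 and from -0.50 to 0.35 for CDK1. Those of CCNB1 ran from -0.73 to 0.13 and from -0.63 to 0.23, so a moderate fall of either gene was not excluded. Both signals were dim, at percentiles 18.8 (CDK1) and 37.2 (CCNB1) of all genes. TTK, dimmer at 6.09, passed in both treatments. The part of signal level in these calls was not tested. Without untreated replicate 1 CDK1 had 0.12 and 0.19 and CCNB1 -0.03 and 0.07, and CCNB1 passed in both treatments without untreated replicate 3. After median centring CCNB1 passed with JINB8 exosomes (-0.43, adjusted p = 0.0408, limma).

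For CDC25C and CKS2 the calls depended on the setting. CDC25C, the phosphatase that activates CDK1, had a log2 fold change of -0.28 with JK exosomes (adjusted p = 0.0288, limma) and -0.16 with JINB8 exosomes (adjusted p = 0.170, limma). The call with JK exosomes was lost with array weights and without untreated replicate 1, JK replicate 2 or JK replicate 3, and CDC25C passed with JINB8 exosomes after median centring (-0.28) and cyclic loess (-0.32). CKS2, a small subunit bound by CDK1, had -0.65 with JINB8 exosomes (adjusted p = 0.00644, limma) and -0.33 with JK exosomes (adjusted p = 0.119, limma), and its treated arrays were below the untreated ones in both. After median centring CKS2 had -0.21 and 0.04 and passed in neither treatment (adjusted p = 0.288 and 0.848, limma). The direct comparison of the treatments, given further on, did not pass for either gene.

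Of the spindle motors and microtubule-associated proteins 6 of 8 were lower in each treatment. DLGAP5, a spindle-stabilising protein also called HURP, had log2 values of 4.80, 4.77 and 4.76 with JINB8 exosomes and 4.83, 4.63 and 4.16 with JK exosomes, against 6.83, 5.42 and 5.99 in untreated HUVEC. The groups did not overlap, and the log2 fold changes were -1.30 ± 0.28 and -1.54 ± 0.28 (SE, adjusted p = 0.00253 and 0.000915, limma). KIF2C, a kinesin that takes microtubules apart at the centromere, had 4.18, 4.00 and 4.20 with JINB8 exosomes and 4.10, 4.11 and 4.07 with JK exosomes, against 6.03, 5.24 and 5.43 in untreated HUVEC. It stood more than 1 log2 unit below every untreated array in both treatments. TPX2, which activates AURKA on the spindle, KIF18A, a kinesin that aligns chromosomes, ASPM, a spindle pole protein, and HMMR, a hyaluronan receptor that also binds the spindle, fell too, by 0.75 to 1.09 with JINB8 exosomes and by 0.69 to 1.15 with JK exosomes. KIF11, the motor that pushes the spindle poles apart, had -0.28 and -0.35, and NUSAP1, which bundles spindle microtubules, had -0.31 and -0.30 (adjusted p between 0.0773 and 0.363, limma). NUSAP1 passed in both treatments without untreated replicate 3. The log2 fold change of KIF11 turned positive in both treatments without untreated replicate 1.

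All 7 measured kinetochore and checkpoint genes were lower in both treatments. Their log2 fold changes ran from -1.01 for BUB1B to -0.58 for CENPF with JINB8 exosomes and from -1.08 for BUB1 to -0.77 for CENPE with JK exosomes. BUB1B (BUBR1), a checkpoint protein that holds back CDC20, had log2 values of 4.90, 5.29 and 5.19 with JINB8 exosomes and 4.78, 5.10 and 5.38 with JK exosomes, against 6.66, 5.55 and 6.19 in untreated HUVEC. All treated arrays were below the lowest untreated one. BUB1 and TTK are the checkpoint kinases, NDC80 and NUF2 form the complex that grips microtubules, and CENPE and CENPF are a kinesin and a large protein of the kinetochore corona. CENPF with JINB8 exosomes lost its call without untreated replicate 1 or JINB8 replicate 3.

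Of the genes of the midzone, the chromosomal passengers and cytokinesis 8 of 10 were lower in each treatment, and this role held the lowest and the highest of all 39. KIF23 (MKLP1), the kinesin of the centralspindlin complex that builds the midzone, had log2 values of 4.70, 5.06 and 4.55 with JINB8 exosomes and 4.75, 4.80 and 4.54 with JK exosomes, against 6.93, 6.65 and 6.58 in untreated HUVEC. Every treated array was well below every untreated one. KIF23 was 3.87-fold lower with JINB8 exosomes (log2 fold change -1.95 ± 0.14, SE, adjusted p = 1.03e-06, limma) and 4.07-fold lower with JK exosomes (-2.03 ± 0.14, adjusted p = 8.33e-07). It kept -1.85 and -1.92 without untreated replicate 1.

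KIF20A (MKLP2), which carries the passenger complex to the midzone, had 5.44, 5.90 and 5.75 with JINB8 exosomes and 5.79, 5.69 and 5.55 with JK exosomes, against 7.80, 6.71 and 6.97 in untreated HUVEC. AURKB, the kinase of the passenger complex, had 6.04, 6.11 and 6.07 with JINB8 exosomes and 6.08, 6.19 and 6.16 with JK exosomes, against 7.36, 7.33 and 7.36 in untreated HUVEC. AURKB was the tightest of the lower genes: its untreated arrays spanned 0.03, and it had the smallest adjusted p of the 39 in both treatments (2.17e-07 and 3.32e-07, limma). Its log2 fold changes were -1.28 ± 0.07 and -1.21 ± 0.07 (SE), and -1.27 and -1.21 without untreated replicate 1. ANLN, the anillin of the contractile ring, KIF14, a kinesin of cytokinesis, PRC1, which cross-links midzone microtubules, BIRC5 (survivin) and RACGAP1, the partner of KIF23, fell as well, by 0.33 to 1.09 with JINB8 exosomes and by 0.43 to 1.12 with JK exosomes.

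A second probeset of BIRC5, the only one among these genes, had deposited log2 values of 3.23, 3.26 and 3.23 with JINB8 exosomes and 3.33, 3.30 and 3.42 with JK exosomes, against 5.41, 5.61 and 5.40 in untreated HUVEC, on the scale where array levels differ. RACGAP1 with JINB8 exosomes lost its call with array weights, after median centring, and without untreated replicate 1 or 3 or any 1 of the JINB8 arrays. KIF4A, a chromokinesin of the midzone, had log2 fold changes of -0.28 and -0.29 and did not pass, but after median centring it had -0.41 and -0.42 and passed in both treatments (adjusted p = 0.0356 and 0.0313, limma). ECT2, the exchange factor that activates RhoA for furrowing, was the only one of the 39 with a positive log2 fold change. It had 7.13, 6.94 and 6.77 with JINB8 exosomes and 6.74, 6.57 and 7.06 with JK exosomes, against 6.84, 6.46 and 6.48 in untreated HUVEC. The groups overlapped, and 0.35 ± 0.15 and 0.20 ± 0.15 (SE) did not pass (adjusted p = 0.0662 and 0.289, limma). Without untreated replicate 1 ECT2 had 0.48 with JINB8 exosomes (adjusted p = 0.0215, limma), and it also passed there without JINB8 replicate 3 or JK replicate 3, with array weights (0.39) and after median centring (0.43). On the deposited scale it was lower, at -1.40 and -1.53, where nearly all genes were lower.

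**Figure D2:**
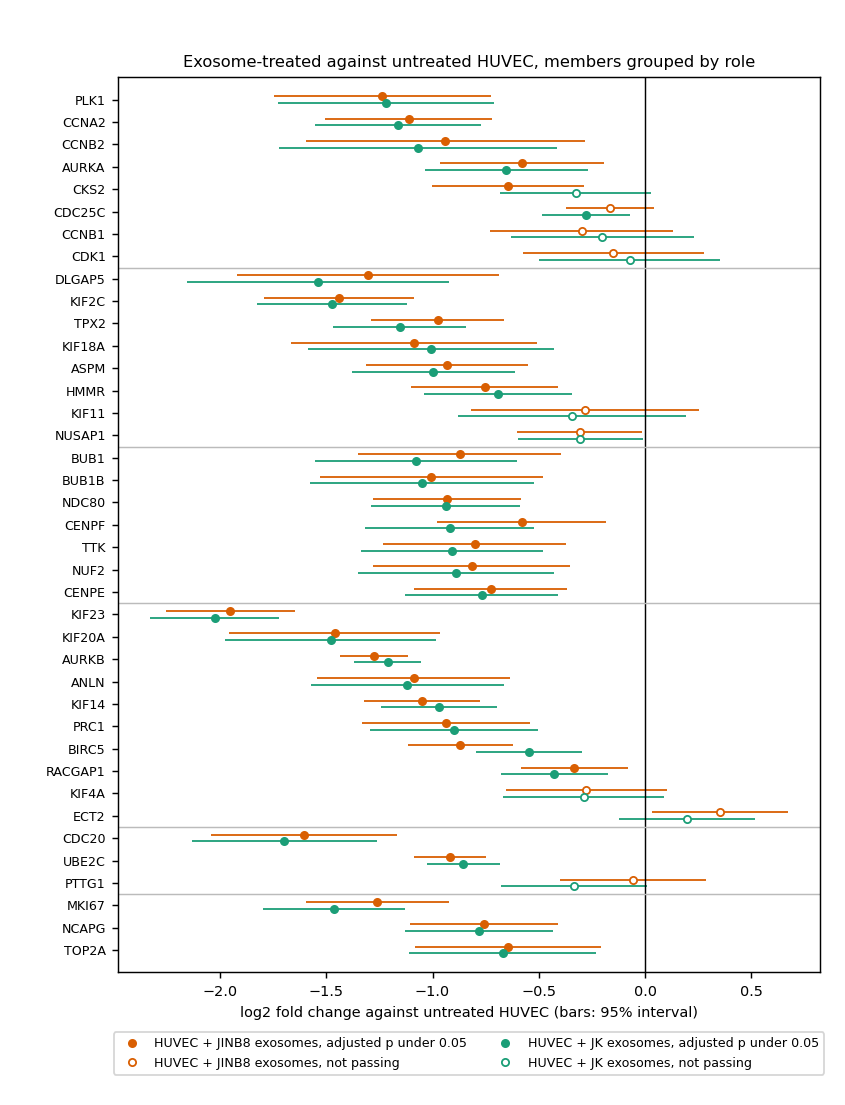
Log2 fold change against untreated HUVEC for each of the 39 genes by role, with 95% intervals; orange is HUVEC with JINB8 exosomes, green HUVEC with JK exosomes, filled points pass an adjusted p of 0.05 (limma) and open points do not. Points lie left of 0 for 38 of 39 genes in each treatment, and ECT2 lies right of it.

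Of the 3 genes of the anaphase ubiquitin pathway 2 were lower. CDC20, the activator of the anaphase-promoting complex, had log2 values of 5.88, 6.31 and 6.19 with JINB8 exosomes and 6.06, 5.88 and 6.17 with JK exosomes, against 8.22, 7.26 and 7.72 in untreated HUVEC. It was 3.04-fold lower with JINB8 exosomes and 3.24-fold lower with JK exosomes (log2 fold changes -1.60 ± 0.20 and -1.70 ± 0.20, SE, adjusted p = 5.96e-05 and 4.26e-05, limma). UBE2C, the ubiquitin-conjugating enzyme of that complex, had -0.92 and -0.85. PTTG1, securin, which the complex destroys, had -0.06 and -0.33 and did not pass in either treatment (adjusted p = 0.780 and 0.0991, limma). After median centring PTTG1 passed with JK exosomes (-0.46, adjusted p = 0.0205, limma). With JINB8 exosomes PTTG1 turned positive with array weights and without untreated replicate 1 or JINB8 replicate 3.

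All 3 genes of chromosome structure were lower. MKI67, which codes for the proliferation marker Ki-67 that coats mitotic chromosomes, had log2 values of 5.71, 6.21 and 6.12 with JINB8 exosomes and 5.87, 5.75 and 5.80 with JK exosomes, against 7.59, 7.02 and 7.20 in untreated HUVEC. Its groups did not overlap, and it was 2.39-fold and 2.76-fold lower (log2 fold changes -1.26 ± 0.15 and -1.46 ± 0.15, SE, adjusted p = 5.05e-05 and 1.84e-05, limma). TOP2A, topoisomerase II alpha, had -0.64 and -0.67, and NCAPG, a condensin subunit, had -0.76 and -0.78. TOP2A with JINB8 exosomes lost its call without JINB8 replicate 2.

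**Figure D3:**
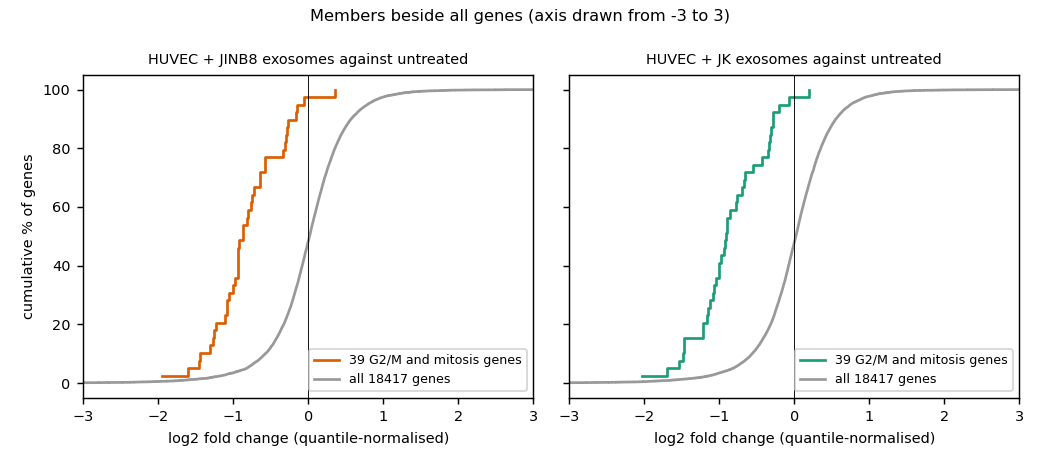
Cumulative percentage of genes by log2 fold change against untreated HUVEC (quantile-normalised), for the 39 G2/M and mitosis genes in colour and all 18417 genes in grey; the left panel is JINB8 exosomes and the right panel JK exosomes. The coloured curves cross 50% at -0.87 and -0.91, and the grey curves at 0.02.

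Further G2/M and mitosis genes, listed beside the 39, were described by the same counts. Of 72 measured 45 were lower and 5 higher with JINB8 exosomes (median log2 fold change -0.47), beside 23.3% and 26.0% of all genes. With JK exosomes 41 were lower and 2 higher (median -0.43), beside 22.4% and 26.2% of all genes. All genes had a median of 0.02 in both treatments. Those with the smallest p were WEE1, the kinase that restrains CDK1 (-1.74 and -1.65), TUBB4B, a beta tubulin (-1.42 and -1.29), SPDL1, which brings dynein to the kinetochore (-1.32 and -1.45), and TRIP13, which resets the checkpoint (-1.69 and -1.55). Of 16 measured regulators of G2/M transcription 7 were lower and 3 higher with JINB8 exosomes (23.3% and 26.0% of all genes), and 7 lower and 4 higher with JK exosomes (22.4% and 26.2% of all genes). The median log2 fold changes of the 16 were -0.06 and -0.08, with 9 of 16 negative in each treatment, so the regulators named here do not describe that list as a whole. FOXM1, the activator that peaks with these genes, had log2 values of 6.10, 6.46 and 6.22 with JINB8 exosomes and 5.97, 5.74 and 5.99 with JK exosomes, against 7.77, 6.92 and 7.43 in untreated HUVEC. It was lower in both treatments (log2 fold changes -1.12 and -1.47, adjusted p = 0.000384 and 5.73e-05, limma), as was MYBL2 (-0.85 and -0.84). NFYB, a subunit of the CCAAT-binding factor, had -1.04 and -0.93, and E2F4, a DREAM subunit, -0.59 and -0.60. RBL2 (p130), the pocket protein of DREAM, was higher, by 0.66 and 0.68.

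On the deposited values, which carry the array levels, all 39 genes were lower in both treatments, as were 99.1% of all genes with JINB8 exosomes and 99.3% with JK exosomes. The medians of the 39 were -2.73 and -2.71, against -1.71 and -1.68 for all genes, so that they lay 1.02 and 1.03 log2 units below the shift of all genes.

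The JINB8 line and the JK line were compared to ask whether CD47 on the T cells alters what their exosomes do. With 1 line of each kind, CD47 and any other difference between the lines cannot be told apart, here or in exosome RNA. HUVEC kept with JINB8 exosomes and HUVEC kept with JK exosomes showed no difference in the mitotic genes that passed at this number of arrays. Of the 39 genes 0 passed, as did 0 of 18417 genes (limma, 0% background). With array weights, which let arrays count unequally, 138 genes were lower and 239 higher over all, still with 0 of the 39. At an unadjusted p under 0.05 (limma) 1 of the 39 differed, against 9.11% of all genes. The fit took its spread from all 9 HUVEC arrays, and the untreated ones spread widely for the mitotic genes. The median SE was 0.16 for the 39, against 0.11 for all genes. The low count therefore does not show that the mitotic genes were more alike between the treatments than other genes. The median log2 fold change of JINB8 over JK was 0.01 on the deposited scale, against -0.02 for all genes, and the 95% intervals of the 39 reached from -0.64 to 0.72 at their widest. BIRC5, the 1 gene, had 4.41 ± 0.06 with JINB8 exosomes and 4.79 ± 0.14 with JK exosomes (SD, n = 3 arrays each), a log2 fold change of -0.38 with an unadjusted p of 0.00566 and an adjusted p of 0.332 (limma).

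Next lowest were CKS2 at -0.30, CCNB1 at -0.15, AURKB at -0.12 and UBE2C at -0.11, then PRC1 at -0.09, CDK1 at -0.07 and KIF14 at -0.06. The highest were CENPF at 0.30, PTTG1 at 0.24, DLGAP5 at 0.19 and BUB1 at 0.17, with MKI67 at 0.17, KIF23 at 0.05 and PLK1 at -0.06. The interval of KIF23 ran from -0.25 to 0.35 and that of MKI67 from -0.19 to 0.52, so a difference of 2-fold lay outside both. For 4 of the 39 genes all JINB8 arrays were below all JK arrays and for 1 they were above, against 9.78% and 7.68% of all genes.

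**Figure D4:**
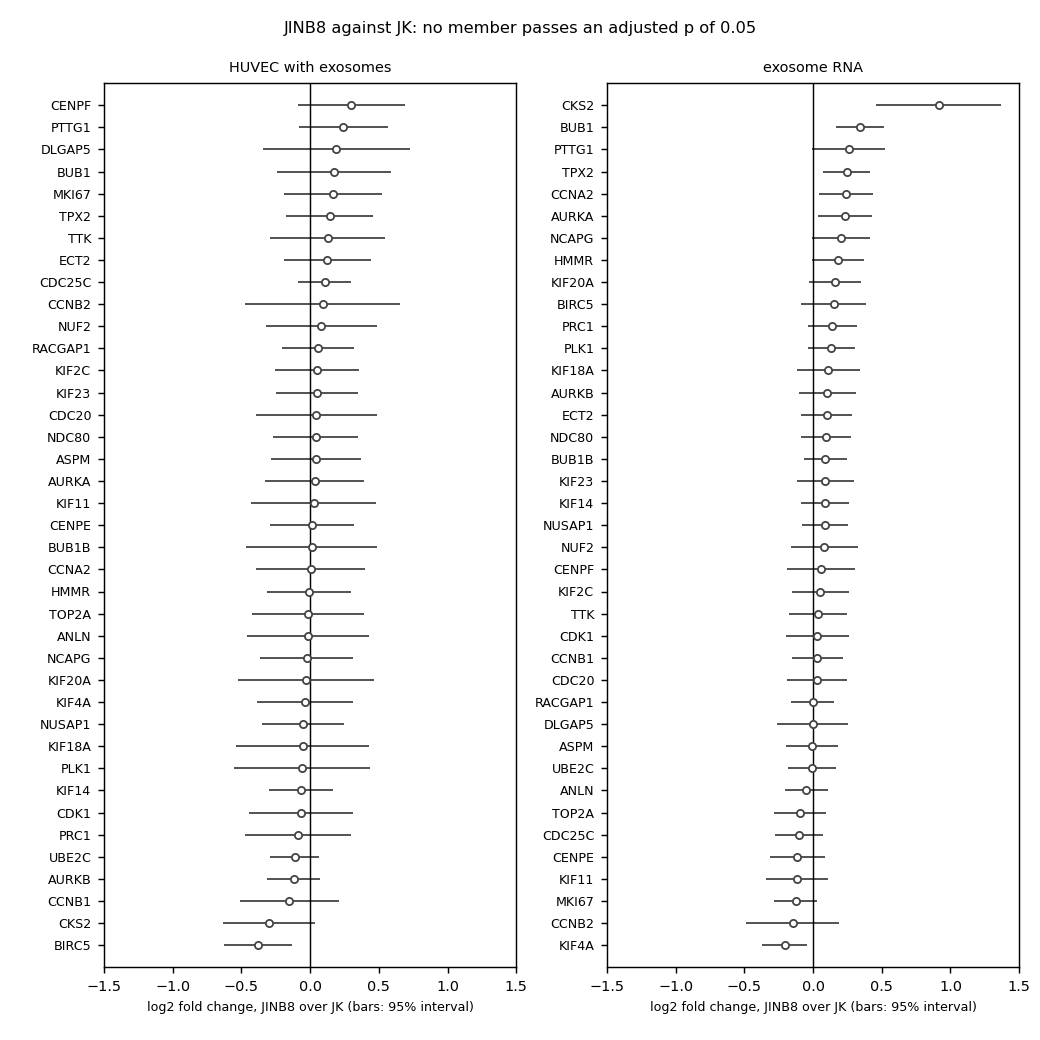
Log2 fold change of JINB8 over JK with 95% intervals for each of the 39 genes, in HUVEC kept with exosomes (left) and in exosome RNA (right), on deposited values and ordered within each panel. Every point is open because none passed an adjusted p of 0.05 (limma); CKS2 in exosome RNA, at 0.91, is the farthest from 0.

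In exosome RNA too, none of the 39 passed between JINB8 and JK, where 0.679% of all genes did (123 genes or 0.668% higher and 2 genes or 0.0109% lower in JINB8). At an unadjusted p under 0.05 (limma) 6 of the 39 differed, against 8.06% of all genes. All JINB8 arrays were above all JK arrays for 6 genes (7.35% of all genes) and below them for 3 (5.52%). The median log2 fold change of the 39 was 0.08, against 0.00 for all genes. CKS2 was the farthest from 0, with log2 values of 5.83, 6.68 and 6.73 in JINB8 exosome RNA, against 5.47, 5.82 and 5.21 in JK exosome RNA. All 3 JINB8 values were above the JK ones, the lowest of them by little, and the log2 fold change was 0.91 ± 0.21 (SE, adjusted p = 0.0881, limma). Without JINB8 exosome replicate 1 it was 1.20 and passed (adjusted p = 0.00232, limma).

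BUB1 had 4.69, 4.82 and 4.68 in JINB8 exosome RNA, against 4.49, 4.35 and 4.31 in JK exosome RNA (log2 fold change 0.34, adjusted p = 0.0996, limma). TPX2 at 0.24, CCNA2 at 0.24, AURKA at 0.23 and KIF4A at -0.21 were the others of the 6, with adjusted p between 0.300 and 0.493 (limma). PTTG1 had 0.26. Lowest after KIF4A were CCNB2 at -0.15, MKI67 at -0.13, KIF11 and CENPE at -0.12, CDC25C at -0.10, TOP2A at -0.09 and ANLN at -0.05. PLK1 had 0.13, AURKB 0.10, KIF23 0.09, and CDK1 and CCNB1 0.03. The summed signal of the 19 T cell markers was 1462 to 1530 in JINB8 exosome RNA, against 1209 to 1308 in JK exosome RNA. Of the 19, 2 were higher and 0 lower, beside 0.668% and 0.0109% of all genes. The part of this signal in the values of the mitotic genes was not tested.

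Exosome RNA was set against the HUVEC that had been kept with exosomes to see which mitotic transcripts differ most between these samples. The vesicles came from T cell lines and the cells are endothelial. Vesicle against cell and T cell line against HUVEC therefore cannot be told apart. The exosome arrays held a narrower range of values: the interquartile range over all genes was 1.45 to 1.52, against 3.06 to 3.16 in treated HUVEC. Of the 39 genes 19 were higher and 15 lower in exosome RNA (limma, adjusted p under 0.05), beside 45.3% and 49.7% of all genes, and 94.9% of all genes passed in either direction. All 6 exosome arrays were above all 6 treated HUVEC arrays for 15 genes (41.3% of all genes) and below them for 12 (47.1%). The median of the 39 was 0.19 and that of all genes -0.13. The median of the 39 changed sign with the normalisation, from 0.61 after median centring to -0.26 after cyclic loess. The summed endothelial marker signal was 634 to 710 in exosome RNA, against 17379 to 19210 in treated HUVEC, and CD3D, CD3E and LCK were higher in exosome RNA.

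CKS2 was the farthest down, at 5.83, 6.68 and 6.73 in JINB8 exosome RNA and 5.47, 5.82 and 5.21 in JK exosome RNA, against 8.91 ± 0.24 (SD, n = 6 arrays) in treated HUVEC. Its log2 difference of -2.96 became 0.05 after cyclic loess. ECT2 had -2.28, NUSAP1 -2.00, KIF11 -1.18, CENPE -1.07, ANLN -1.05, KIF20A -0.81 and PRC1 -0.74. Higher in exosome RNA were PTTG1 by 1.32, CDC25C by 1.25, KIF2C by 1.24 and NUF2 by 1.08. AURKB had 0.96 and KIF23 0.45, while CCNB1 had -0.46, CDK1 -0.40 and MKI67 -0.26. PLK1 (-0.12), KIF14 (-0.02), NCAPG (0.11), BUB1B (0.18) and CCNB2 (0.19) did not pass, but all 5 passed after median centring and after cyclic loess. Only PLK1 had the same sign in both (0.29 and 0.70). The others were higher after median centring and lower after cyclic loess: KIF14 0.39 and -0.63, NCAPG 0.53 and -0.28, BUB1B 0.59 and -0.52, CCNB2 0.61 and -0.52. These directions are those of the deposited scale, and many changed with the normalisation. After cyclic loess KIF23, BUB1B, CCNB2, NCAPG, ASPM, BUB1, KIF18A, NDC80 and TTK turned negative, and CKS2 and PLK1 turned positive. After median centring MKI67, CDK1, KIF14, PLK1, TPX2 and TOP2A turned positive. Quantile normalisation turned ASPM, CCNB2, KIF18A and TTK negative and CCNA2, PLK1 and TPX2 positive.

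**Figure D5:**
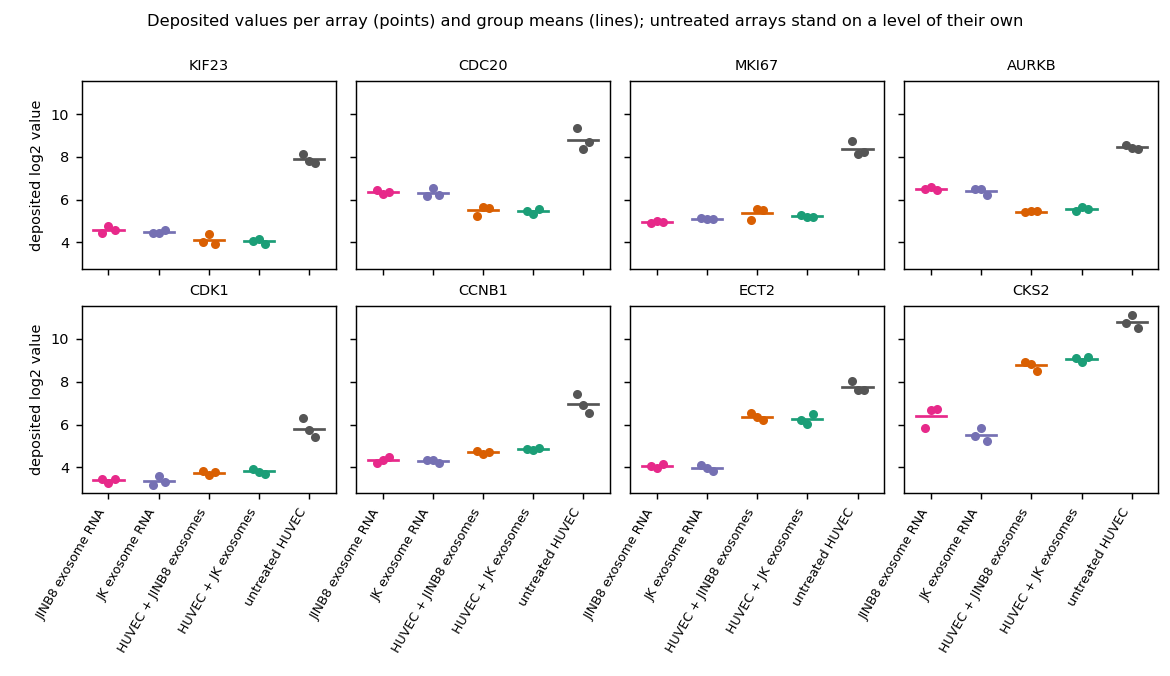
Deposited log2 values of 8 genes on each of the 15 arrays (points) with group means (lines), from left to right JINB8 exosome RNA, JK exosome RNA, HUVEC with JINB8 exosomes, HUVEC with JK exosomes and untreated HUVEC. The untreated arrays stand on a level of their own for every gene; KIF23 and CDC20 lie lower in treated HUVEC than in exosome RNA, and ECT2 and CKS2 lie higher.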

How the data were processed

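The authors deposited log2 probeset values, made with Affymetrix Expression Console per the submitters' processing notes. Its version, the normalisation and which arrays were normalised together were not given in the sources used here. Total RNA, 300 ng per array, was labelled for whole-transcript arrays per the labels' protocols. Of 33297 probesets 19460 carried 1 symbol in the platform annotation, 1754 several and 12083 none. A gene was read from its brightest single-symbol probeset (mean of the 15 arrays), leaving 18417 genes.

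Samples were grouped by their labels. HUVEC were fitted in 1 limma model over 9 arrays (6 residual degrees of freedom), exosome RNA in a model over 6 arrays (4), and exosome RNA against treated HUVEC over 12 arrays (8), with lmFit, eBayes and Benjamini-Hochberg adjustment over all genes at 0.05. Comparisons with untreated HUVEC used quantile normalisation of the 9 HUVEC arrays, the others the deposited values. With 3 against 3 arrays an exact permutation test cannot give a p below 0.1. R 4.3.3 and limma 3.58.1 were used, and the fits were tested on simulated data. Values within a group correlated at 0.986 to 0.995. Same-numbered arrays of 2 HUVEC groups deviated together at correlations of -0.45 to 0.24, so replicate numbers were not taken as pairs. Between the JINB8 and JK treatments same-numbered arrays gave -0.45 to -0.18 and differently numbered ones -0.21 to 0.33. Some deviations were thus shared across numbers. They were not modelled, and their part in the comparison of the treatments was not tested. Precision is limited by the number of arrays.

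The genes named are, per comparison, the 8 lowest and 4 highest log2 fold changes, MKI67, CDK1, CCNB1, PLK1, AURKB and KIF23, and genes that differ in their call from most. The members, lists, rule and tests were chosen with earlier results of these data known. Alternatives were other normalisations, a filter on the 40% dimmest genes, probesets averaged by gene, array weights, a trended and robust variance, a replicate block, other sets of arrays, and leaving out each array.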

Additional observations from a re-analysis of the deposited data

How the results depend on the processing

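Against untreated HUVEC the filter on the 40% dimmest genes kept 18 of the 39. It left 16 lower with JINB8 exosomes and 15 with JK exosomes, beside 26.6% and 25.5% of all genes kept. On deposited values the medians were -2.73 and -2.71. ECT2 then turned negative, at -1.40 and -1.53. Leaving out 1 array gave 28 to 32 calls and medians of -1.02 to -0.67 with JINB8 exosomes. The fewest of these calls were 27 lower and 1 higher, and the most were 31 lower and 1 higher. The higher gene was ECT2 in both. With JK exosomes leaving out 1 array gave 30 to 33 calls, all lower, and medians of -1.01 to -0.64. Between the treatments it gave 0 calls and medians of -0.01 to 0.04. No alternative called any of the 39 there, although array weights called 138 genes lower and 239 higher over all genes. In exosome RNA leaving out 1 array gave 0 to 1 call and medians of 0.03 to 0.10; the 1 call, CKS2, also came with the dim filter, with all 15 arrays in 1 fit and with the replicate number as a block. For exosome RNA against treated HUVEC the dim filter kept 12 of the 39 and called 11, with a median of 0.067, and the median was 0.61 after median centring, 0.061 after quantile normalisation and -0.26 after cyclic loess. Cyclic loess turned 11 genes, median centring 6 and quantile normalisation 7. Among them, cyclic loess gave BUB1B -0.52, CCNB2 -0.52, ASPM -0.47, BUB1 -0.45, KIF18A -0.41, NCAPG -0.28, KIF23 -0.26, TTK -0.17, NDC80 -0.11, CKS2 0.053 and PLK1 0.70, median centring CDK1 0.013, KIF14 0.39, MKI67 0.15, TPX2 0.083 and PLK1 0.29, and quantile normalisation PLK1 0.85. Leaving out 1 array gave 33 to 36 calls and medians of 0.15 to 0.24. The dim filter tests fewer genes by construction; the cause of the other shifts was not tested. With the replicate block, whose numbers do not pair the arrays, 31, 31, 0, 1 and 35 genes were called in the 5 comparisons in the order above. The array level of untreated HUVEC and, for exosome RNA, the narrow range of signals limit what the arrays resolve.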
